A study of Homo sapiens with 32 samples.

Results

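The Notch genes described here are 10 protein-coding genes of the Notch signalling pathway: the receptors NOTCH1, NOTCH2, NOTCH3 and NOTCH4, the ligands JAG1, JAG2 and DLL1, the glycosyltransferase LFNG and the transcriptional targets HES1 and HEY1. They were taken by gene symbol and biotype from RNA-Seq counts of 60554 annotated genes, of which 19815 were protein-coding, and all 10 were found. The counts came from 32 libraries of MCF10A, a non-tumourigenic breast epithelial cell line, and MDA-MB-231, a triple-negative breast cancer line, both established human lines. In each line, cells in normoxia (N), in hypoxia at 0.5% O2 for 24 h (H), in normoxia with 2.5 µM of the mTOR inhibitor PP242 for 3 h (NPP) or in hypoxia with PP242 (HPP) gave libraries of total mRNA (T) and of mRNA bound to polysomes (P), with 2 biological replicates of each of the 8 groups per line. Both lines were kept in DMEM with foetal bovine serum, and MCF10A cells also received EGF, hydrocortisone, cholera toxin and insulin. The labels give the lines no genetic change.

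Notch receptors are membrane proteins that are cut when a ligand of the Jagged or Delta-like family on a neighbouring cell binds them, first by an ADAM protease and then by gamma-secretase. The freed intracellular part enters the nucleus, where it joins RBPJ and a Mastermind protein on DNA and switches on genes such as HES1 and HEY1, which encode transcriptional repressors. In the mammary gland the pathway is known for its part in the choice between basal and luminal cell fates, and in breast cancer for its links to hypoxia, invasion and self-renewal.

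Under hypoxia with PP242 the response of JAG2 and HES1 differed between the lines by the test of that difference. In MCF10A the target HES1 fell to 10 or fewer counts per library, HEY1 fell in total mRNA, and NOTCH4 and DLL1 rose in polysomal mRNA. In MDA-MB-231 the ligand JAG2 rose in total and in polysomal mRNA. By the main edgeR fit it was the only member called in that line under any treatment. This fit took the 16 libraries of a line after a filter on low counts, without block or offset. NOTCH1 passed there under HPP in other edgeR settings, given below. Hypoxia alone moved JAG2 past the threshold in polysomal mRNA of MDA-MB-231. The main edgeR fit made no other call under hypoxia alone or PP242 alone. DESeq2 did call members of MCF10A there, NOTCH4 and DLL1 in H P, HEY1 in NPP T and HES1 in NPP P. With offsets for transcript length or a replicate block, edgeR also called the last 2. With that block it called NOTCH4 in H T and H P as well. No member was called for translational efficiency (Te, the log2 fold change in P minus that in T), a test that called 0 genes at all in MCF10A and so does not show that Te stayed the same.

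The libraries held between 18340916 and 46032327 counts, of which 97.4% to 99.2% lay on protein-coding genes. Levels are given as CPM (counts scaled to library size) after TMM scaling in the joint fit of both lines, fold changes as log2FC ± the standard error (SE) of the edgeR fit of a line with n = 2 libraries per group, and a member counts as called at an adjusted p below 0.05. Libraries of MCF10A differed in how much they held of long transcripts. The median deviation of genes with transcripts of at least 6 kb minus that of genes with transcripts up to 1.5 kb, on the log2 scale, was -1.54 in the second library of NPP T, -1.10 in the first of N P, -0.79 in the second of HPP T and -0.71 in the first of H P, against values up to 0.73 in the others. In MDA-MB-231 it stayed between -0.39 and 0.32. In 16 MCF10A libraries the log2 level of NOTCH2, which has the longest transcript of the 10 at 11.4 kb, followed this value with Pearson's r = 0.94, NOTCH1 with r = 0.79 and JAG1 with r = 0.75, while the other 6 members tested had r between -0.31 and 0.27. These are descriptions over libraries that share their preparation, and no p is given for them. The results of MCF10A were also computed without the second NPP T and the first N P library. The calls that this changed are named with the genes, and that of NOTCH3 in the last section.

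**Figure D1:**
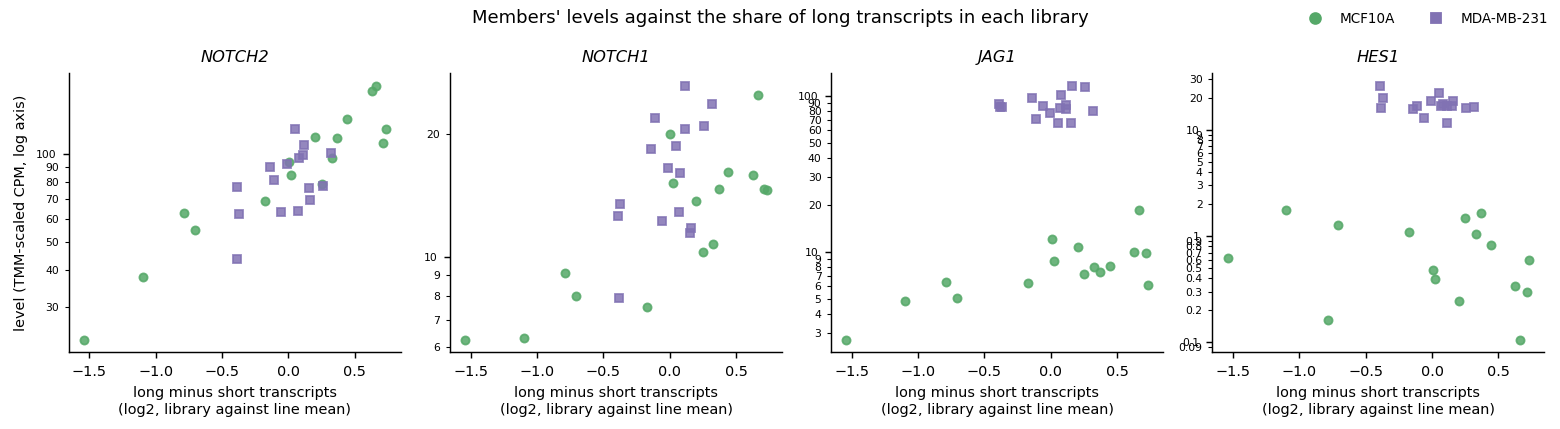
Level of NOTCH2, NOTCH1, JAG1 and HES1 (TMM-scaled CPM, log axis) against the excess of long over short transcripts (log2) in each of the 32 libraries, with MCF10A as circles and MDA-MB-231 as squares. In MCF10A, NOTCH2 rises along the axis (r = 0.94) and HES1 does not (r = -0.25).

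The labels were checked with genes that answer to oxygen and to mTOR. Of 10 hypoxia-induced genes, 7 rose in H T and 7 in H P in each line, with CA9 among them every time. VEGFA, another of the 10, had log2FC of 0.46 to 2.32 under H. It passed edgeR's test in neither fraction of either line (adjusted p from 0.0734 to 0.164). Of 10 mRNAs with a terminal oligopyrimidine tract, whose translation depends on mTOR, 7 fell in HPP P in MCF10A and 9 in MDA-MB-231. Under PP242 in normoxia these mRNAs fell in P in 5 of 10 cases in MDA-MB-231 and in 0 of 10 in MCF10A, where their median log2FC was -1.03. Basal epithelial markers, such as KRT5, summed to a median of 5898 CPM in MCF10A and 358 CPM in MDA-MB-231. In MCF10A this sum moved with the treatment, from 3735 and 2598 CPM in N T to 8279 and 12605 CPM in HPP T and from 3523 and 2801 CPM in N P to 10690 and 15229 CPM in HPP P. Of the 8 genes, 4 rose under HPP in both fractions (LAMB3, ITGB4, KRT14 and KRT17). In MCF10A 6 of the 8 had a median above 1 CPM, and in MDA-MB-231 4 did. CDH1 and TP63 were near 0 in MCF10A, at medians of 0.091 and 0.046 CPM, against 0.195 and 0.117 CPM in MDA-MB-231. The mesenchymal list was higher in MCF10A, at 30913 CPM with TGFBI its most abundant gene, than in MDA-MB-231, at 5409 CPM with VIM first. Fibroblast markers summed to 148 CPM in MCF10A, of which DCN gave 127 CPM, and to 12.7 CPM in MDA-MB-231. Leukocyte markers summed to 81.3 and 83.6 CPM, nearly all of it CD68, with CD3E at 0 in every MCF10A library. The mesenchymal sum of MCF10A went from 23418 and 22914 CPM in N T to 42536 and 53476 CPM in HPP T, and the leukocyte sum from 45.6 and 50.6 CPM to 103.5 and 182.8 CPM. The part of these sums in the changes of HES1, HEY1, NOTCH4 and DLL1 under HPP was not tested. In such bulk libraries, fewer cells that express a gene and less mRNA per cell cannot be told apart.

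Levels can be compared between genes only per transcript length. On the scale of CPM per kb of exon, the median over the 16 libraries of MCF10A was highest for NOTCH2 (5.68) and LFNG (5.64), whose ranges over the libraries overlapped. NOTCH1 (1.13), JAG1 (0.83), JAG2 (0.41), DLL1 (0.31), HES1 (0.30), HEY1 (0.24) and NOTCH4 (0.17) followed, and NOTCH3 came last (0.0060). The steps from LFNG to NOTCH1 and from NOTCH4 to NOTCH3 were wider than the spread over libraries, and all other neighbours in the order overlapped. In MDA-MB-231 the order began with JAG1 (9.06 CPM per kb) and HES1 (8.14). NOTCH2 (4.74), LFNG (2.09) and NOTCH1 (1.30) came next, and JAG2 (0.25), NOTCH4 (0.15), HEY1 (0.14), NOTCH3 (0.037) and DLL1 (0.014) stood below them. Here the step from NOTCH1 to JAG2 was the only one between neighbours that was wider than the spread. These medians pool the treatments, and in N P of MCF10A alone HES1 stood higher in the order, at a mean of 0.83 CPM per kb against 0.84 for NOTCH1, 0.66 for JAG1 and 0.12 for DLL1.

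**Figure D2:**
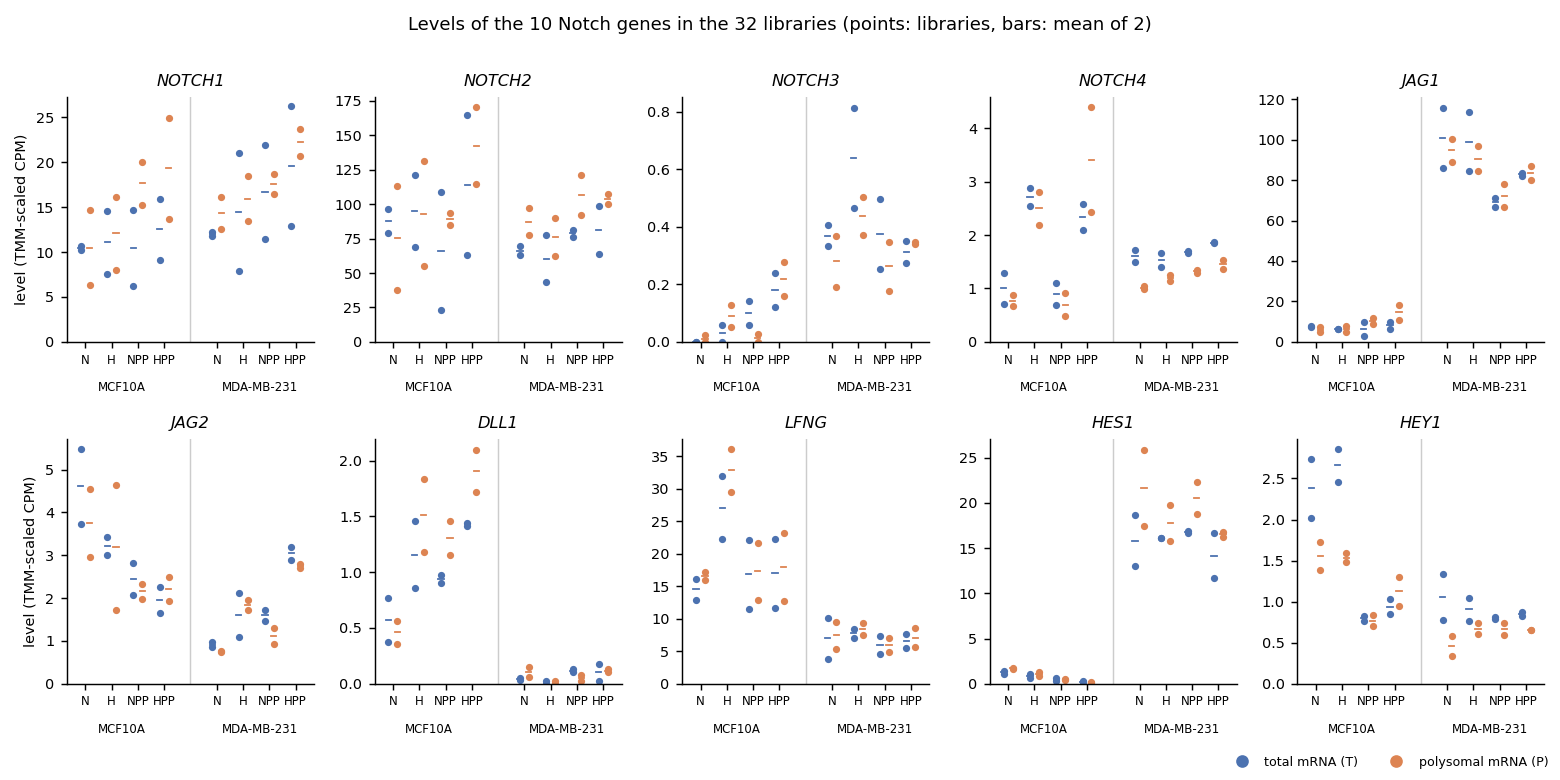
Level (TMM-scaled CPM, linear axis from 0, scaled per gene) of each of the 10 Notch genes in total (T) and polysomal (P) mRNA of each condition and line, with points for libraries and bars for the mean of 2. JAG1 and HES1 stand higher in MDA-MB-231, DLL1 and JAG2 higher in normoxic MCF10A, and HES1 in MCF10A is lowest under HPP.

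The receptors came first in the comparison of treatments. In MCF10A, NOTCH1 stood at 10.7 and 10.3 CPM in N T and at 6.31 and 14.7 CPM in N P, and under HPP at 15.9 and 9.15 CPM in T and 13.7 and 24.9 CPM in P. The groups overlapped in each fraction, and log2FC under HPP was 0.30 ± 0.56 in T and 0.82 ± 0.56 in P (adjusted p = 0.777 and 0.313). In MDA-MB-231, NOTCH1 went from 11.8 and 12.2 CPM in N T to 12.9 and 26.3 CPM in HPP T, and from 12.6 and 16.1 CPM in N P to 23.7 and 20.7 CPM in HPP P. The groups did not overlap in either fraction, but neither log2FC passed the test (0.64 ± 0.41 in T, adjusted p = 0.317, and 0.59 ± 0.40 in P, adjusted p = 0.319). Without the filter on low counts both passed (0.72, adjusted p = 0.0193 in T, and 0.68, adjusted p = 0.0197 in P), as did P in a fit of the 4 libraries (adjusted p = 0.0439). NOTCH2 was the most abundant receptor in each line, at 96.7 and 79.1 CPM in N T of MCF10A and 69.6 and 63.0 CPM in N T of MDA-MB-231. Its counts in MCF10A were as low as 484 in the second NPP T library, where 3675 were found in the first, and its SE in that line was 0.72 to 0.73 in every treatment comparison. Part of its reads may be shared with NOTCH2NL, a near-identical partial copy listed as a gene of its own at a median of 51.2 CPM in MCF10A and 16.9 CPM in MDA-MB-231, so that its values are uncertain. NOTCH3 was nearly absent from MCF10A, where it had 0 to 9 counts per library and did not pass the filter on low counts. It was counted 5 to 34 times in each MDA-MB-231 library, where no treatment moved it past the threshold.

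NOTCH4, a receptor best known from endothelial cells, was the only receptor that the main edgeR fit called under a treatment. In the polysomal mRNA of MCF10A it stood at 0.676 and 0.873 CPM in N, 2.20 and 2.82 CPM in H, 0.477 and 0.915 CPM in NPP, and 2.43 and 4.40 CPM in HPP. Both libraries of H and both of HPP lay above all 4 normoxic libraries of the same fraction, with or without PP242. The rise under HPP had a log2FC of 2.06 ± 0.45 (adjusted p = 0.00746), while that under H, 1.61 ± 0.44, did not pass (adjusted p = 0.118), though it did under DESeq2 (adjusted p = 0.0303). The rise under H also passed in the edgeR fit with a replicate block (1.63 ± 0.34, adjusted p = 0.0261). In total mRNA the levels were 0.705 and 1.30 CPM in N, 2.54 and 2.89 CPM in H, and 2.09 and 2.59 CPM in HPP. Both H and both HPP libraries lay above both N libraries here too, while H and HPP overlapped each other. The log2FC was 1.45 ± 0.44 in H (adjusted p = 0.171) and 1.24 ± 0.44 in HPP (adjusted p = 0.08). The latter passed under DESeq2 (1.31, adjusted p = 0.0388) and with offsets for length and GC content (1.35, adjusted p = 0.0298). With a replicate block, the changes in T under H (adjusted p = 0.0355) and HPP (adjusted p = 0.0175) passed edgeR's test. The call under HPP in P was lost without the first N P or the second HPP P library, with log2FC from 1.62 to 2.39 over the libraries left out. In MDA-MB-231, NOTCH4 remained between 0.992 and 1.86 CPM in all 16 libraries, and its log2FC under HPP was 0.48 ± 0.25 in P (adjusted p = 0.188).

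The summed level of 8 endothelial markers was higher than in N in all libraries of H and HPP in MCF10A, as NOTCH4 was, and also in NPP P, where NOTCH4 was not. It was 1.35 and 1.68 CPM in N P, 2.24 and 1.99 CPM in H P, 1.99 and 2.20 CPM in NPP P and 3.35 and 5.99 CPM in HPP P. In total mRNA it was 1.50 and 1.82 CPM in N, 2.67 and 2.32 CPM in H, 1.81 and 1.77 CPM in NPP and 3.60 and 4.09 CPM in HPP. Of the 8, PECAM1 rose under HPP in T (log2FC 2.56 ± 0.66, adjusted p = 0.0227) and in P (2.45 ± 0.67, adjusted p = 0.0223), and TIE1 rose in T (2.91 ± 0.68, adjusted p = 0.0145). The most abundant was KDR, at a median of 0.88 CPM, and 0 of 8 had a median above 1 CPM. The defining markers CDH5 and CLDN5 had a median of 0 and VWF one of 0.026 CPM. The part of this list in the NOTCH4 result was not tested. In MDA-MB-231 the sum had a median of 179 CPM, of which the adhesion gene ESAM gave 169 CPM, and CDH5 was at a median of 0.032 CPM.

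Among JAG1, JAG2 and DLL1, only JAG2 was called in MDA-MB-231 under a treatment by edgeR's test. JAG2 encodes a Jagged ligand and lies at chr14:105140982-105168824 on the minus strand of GRCh38 in GENCODE 44. The stretch before its RefSeq start, outside the annotated gene, was searched for ACGTG and GCGTG on both strands, the letters of a hypoxia response element, and holds them once, as the reverse complement CACGC. At least 1 such match is found in 36.2% of 35116 RefSeq promoters over the same length of 202 bases. It is shown because JAG2 is the member called in MDA-MB-231, with the match in capitals, from chr14:105168825-105169026 (GRCh38.p14, minus strand), 5′ to 3′.
JAG2: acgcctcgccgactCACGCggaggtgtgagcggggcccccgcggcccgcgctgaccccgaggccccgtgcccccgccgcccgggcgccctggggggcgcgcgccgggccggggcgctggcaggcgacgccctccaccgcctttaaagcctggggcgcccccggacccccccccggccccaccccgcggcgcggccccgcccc
The match is a description of these letters and not a binding site. The listed promoters of the other members held 4 matches for JAG1, 2 each for HES1 and NOTCH1, 1 each for LFNG and NOTCH3, and 0 for NOTCH2 and NOTCH4.

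JAG2 stood at 0.966 and 0.856 CPM in N T of MDA-MB-231, at 2.13 and 1.09 CPM in H T, at 1.47 and 1.73 CPM in NPP T and at 2.88 and 3.20 CPM in HPP T. In polysomal mRNA it stood at 0.731 and 0.766 CPM in N, 1.71 and 1.96 CPM in H, 1.30 and 0.938 CPM in NPP, and 2.80 and 2.70 CPM in HPP. Every treated library lay above both normoxic libraries of its fraction, and the HPP libraries were the highest of all. The rise under HPP was 3.17-fold in T (log2FC 1.67 ± 0.31, adjusted p = 0.00356) and 3.58-fold in P (log2FC 1.84 ± 0.31, adjusted p = 0.00119). Both calls held when each library was left out in turn, with log2FC of 1.61 to 1.80 in T and 1.80 to 1.88 in P. Under H alone the rise in P was called (log2FC 1.30 ± 0.32, adjusted p = 0.0473), and that in T was not (0.81 ± 0.32, adjusted p = 0.287). The call under H was lost without any 1 of the 4 libraries and under DESeq2, RLE scaling or a fit of those 4 libraries alone. Under NPP the log2FC was 0.78 ± 0.32 in T and 0.56 ± 0.32 in P (adjusted p = 0.389 and 0.502). These comparisons share the normoxic libraries.

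In MCF10A the fitted change of JAG2 had the opposite sign and did not pass the test. It stood at 5.49 and 3.74 CPM in N T, 3.01 and 3.43 CPM in H T, 2.08 and 2.82 CPM in NPP T and 2.26 and 1.66 CPM in HPP T, so that all 6 treated libraries lay below both normoxic ones. In P it stood at 2.97 and 4.54 CPM in N, 1.73 and 4.65 CPM in H, 2.33 and 1.99 CPM in NPP and 1.94 and 2.49 CPM in HPP, where H overlapped N and the other groups lay below it. The log2FC under HPP was -1.19 ± 0.43 in T (adjusted p = 0.0891) and -0.82 ± 0.43 in P (adjusted p = 0.191). With offsets for length and GC content it passed in T (-1.15, adjusted p = 0.0238) and in P (-0.997, adjusted p = 0.0359). The difference between the lines in the HPP effect on JAG2 passed the test, at 2.96 ± 0.55 in T (adjusted p = 0.00445) and 2.64 ± 0.55 in P (adjusted p = 0.00824).

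JAG1, the other Jagged ligand, was abundant in MDA-MB-231 and moved little. It stood at 116 and 85.8 CPM in N T and at 83.3 and 82.3 CPM in HPP T, with a log2FC of -0.34 ± 0.17 (adjusted p = 0.189). The lowest values were those of NPP T, 66.6 and 71.3 CPM, with a log2FC of -0.57 ± 0.17 that did not pass (adjusted p = 0.183). In polysomal mRNA of MCF10A it stood at 4.81 and 7.41 CPM in N and 10.8 and 18.4 CPM in HPP, which did not overlap, with a log2FC of 1.19 ± 0.51 (adjusted p = 0.118). This change passed in the edgeR fit with a replicate block (1.18 ± 0.40, adjusted p = 0.0407). With an offset for transcript length in each library, chosen after the libraries had been seen, the same change was 1.00 and passed (adjusted p = 0.0237). Without the second NPP T and the first N P library it did not (1.00, adjusted p = 0.136), while HPP against H in P did (1.18, adjusted p = 0.0496).

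DLL1, a Delta-like ligand at chr6:170282206-170306565 on the minus strand, rose in MCF10A. In polysomal mRNA it stood at 0.563 and 0.358 CPM in N, 1.18 and 1.83 CPM in H, 1.46 and 1.15 CPM in NPP, and 1.72 and 2.09 CPM in HPP, from 15 and 16 counts in N to 56 and 79 in HPP. All 6 treated libraries lay above the normoxic ones. Under HPP the rise was 4.00-fold (log2FC 2.00 ± 0.45, adjusted p = 0.00886). Under H it was 1.65 ± 0.45 and under NPP 1.53 ± 0.45 on the log2 scale, which did not pass (adjusted p = 0.113 and 0.135). The rise under H did pass under DESeq2 (adjusted p = 0.0355). In total mRNA the log2FC under HPP was 1.36 ± 0.44 (adjusted p = 0.0599), from 0.766 and 0.374 CPM to 1.44 and 1.42 CPM, and it passed without the second NPP T and the first N P library (1.46, adjusted p = 0.0485). This change also passed under DESeq2 (adjusted p = 0.0298) and with a replicate block (adjusted p = 0.0469). It passed with an offset for length (adjusted p = 0.0359) and with offsets for length and GC content (adjusted p = 0.044) as well. The polysomal call was lost without the second N P or the second HPP P library, with log2FC of 1.66 to 2.44. In MDA-MB-231, DLL1 had 0 to 7 counts per library and was not tested.

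LFNG, which adds N-acetylglucosamine to fucose on Notch receptors and so alters their choice of ligand, was not called by the main edgeR fit in either line under any treatment. Its highest levels were those of hypoxic MCF10A cells, 29.5 and 36.1 CPM in H P against 17.2 and 15.9 CPM in N P, and 22.2 and 31.9 CPM in H T against 12.9 and 16.1 CPM in N T. The groups did not overlap in either fraction, and the log2FC was 0.91 ± 0.41 in P and 0.91 ± 0.41 in T (adjusted p = 0.387 and 0.446). Under HPP it was 12.7 and 23.2 CPM in P, a spread that took in both normoxic libraries. In MDA-MB-231 it lay between 3.85 and 10.1 CPM throughout, and its log2FC under the treatments ran from -0.34 to 0.18.

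HES1, a basic helix-loop-helix repressor and the best known Notch target, lies at chr3:194136148-194138732 on the plus strand. The 250 bases before its RefSeq start hold 2 matches to TGGGAA, the letters of an RBPJ site searched on both strands, and both matches lie in the same orientation. At least 1 match is found in 20.8% of 35116 RefSeq promoters of that length and at least 2 in 2.9%. The stretch is shown because HES1 is the member that fell furthest, with the matches in capitals, from chr3:194135898-194136147 (GRCh38.p14, plus strand), 5′ to 3′.
HES1: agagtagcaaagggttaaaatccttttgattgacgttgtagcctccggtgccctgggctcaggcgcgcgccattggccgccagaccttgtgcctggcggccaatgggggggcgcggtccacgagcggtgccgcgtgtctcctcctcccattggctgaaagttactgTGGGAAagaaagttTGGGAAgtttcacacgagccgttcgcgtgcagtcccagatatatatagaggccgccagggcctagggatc
The letters ACGTG or GCGTG match 2 times in this stretch as well, and at least 1 match is found in 43.2% of promoters of that length. In the listed promoters of NOTCH1, NOTCH2, NOTCH3, NOTCH4, JAG1 and JAG2 there were 0 matches to TGGGAA, and in those of LFNG 1, which says nothing beyond these letters and windows.

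In polysomal mRNA of MCF10A, HES1 stood at 1.76 and 1.66 CPM in N, 1.27 and 0.823 CPM in H, 0.477 and 0.392 CPM in NPP, and 0.246 and 0.106 CPM in HPP. In counts this was 47 and 74 in N against 8 and 4 in HPP, so the HPP values rest on few reads. The 4 conditions followed each other without overlap, from N to H, NPP and HPP. Under HPP the fall was 10.0-fold (log2FC -3.32 ± 0.60, adjusted p = 0.00301), and it was called with each library left out in turn (log2FC -4.07 to -2.80). Against H, the fall under HPP was -2.53 ± 0.60 on the log2 scale (adjusted p = 0.0298), a call lost without any 1 of the 4 libraries. H and NPP against N gave -0.79 ± 0.52 and -1.95 ± 0.54, which did not pass (adjusted p = 0.625 and 0.12). The change under NPP passed under DESeq2 (adjusted p = 0.0288), with an offset for length (adjusted p = 0.046) and with offsets for length and GC content (adjusted p = 0.0343).

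Total mRNA showed the same order of N and HPP for HES1. The levels were 1.04 and 1.47 CPM in N, 0.596 and 1.10 CPM in H, 0.296 and 0.621 CPM in NPP, and 0.342 and 0.162 CPM in HPP. The HPP libraries lay below both N libraries, with a 4.73-fold fall (log2FC -2.24 ± 0.58, adjusted p = 0.0242). This call was lost without any 1 of the 4 libraries (log2FC -2.87 to -1.78) and in a fit of those 4 alone. In MDA-MB-231, HES1 stood at 18.7 and 13.0 CPM in N T and 16.7 and 11.6 CPM in HPP T, and at 25.8 and 17.5 CPM in N P and 16.3 and 16.8 CPM in HPP P. The groups overlapped in T and not in P, and the log2FC was -0.22 ± 0.22 in T and -0.42 ± 0.21 in P (adjusted p = 0.539 and 0.185). The difference between the lines in the HPP effect was 2.12 ± 0.55 in T (adjusted p = 0.035) and 2.89 ± 0.55 in P (adjusted p = 0.00449). The difference in T was lost without the second N T or HPP T library of MCF10A, without the first HPP T or the second N T library of MDA-MB-231, and under RLE scaling. That in P was lost without the second HPP P library of MCF10A.

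HEY1, a related repressor, fell in total mRNA of MCF10A. It stood at 2.02 and 2.74 CPM in N T, 2.46 and 2.86 CPM in H T, 0.830 and 0.764 CPM in NPP T, and 1.03 and 0.850 CPM in HPP T. The 4 libraries with PP242 lay below the 4 without it. The log2FC under HPP was -1.30 ± 0.32 against N (adjusted p = 0.0193) and -1.49 ± 0.32 against H (adjusted p = 0.0263), and that under NPP, -1.53 ± 0.33, did not pass (adjusted p = 0.0701) but did under DESeq2 (adjusted p = 0.0102) and with either offset (adjusted p = 0.0461 and 0.0264). Both calls were lost without any 1 of their 4 libraries, in a fit of those 4 alone and without the filter on low counts. In polysomal mRNA the levels were 1.39 and 1.72 CPM in N, 0.701 and 0.836 CPM in NPP, and 0.952 and 1.30 CPM in HPP, and the log2FC under HPP was -0.53 ± 0.32 (adjusted p = 0.255). In MDA-MB-231, HEY1 had 12 to 33 counts per library, and its log2FC under HPP was -0.35 ± 0.37 in T and 0.50 ± 0.40 in P (adjusted p = 0.572 and 0.411). The difference between the lines in the HPP effect did not pass the test (1.05 ± 0.45 in T, adjusted p = 0.256, and 1.00 ± 0.46 in P, adjusted p = 0.279).

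**Figure D3:**
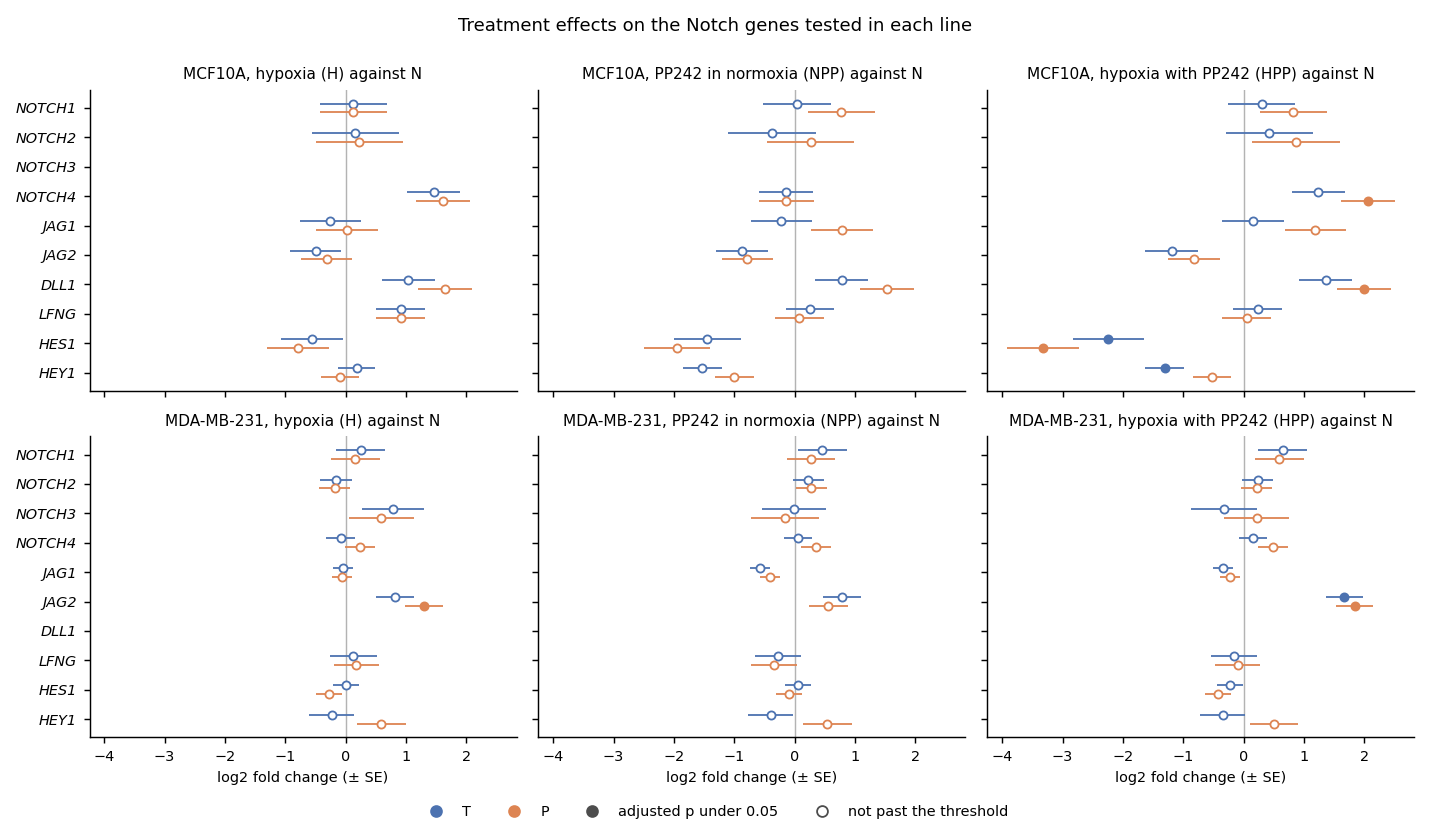
log2 fold change ± SE of each Notch gene tested under H, NPP and HPP against N in total (T) and polysomal (P) mRNA of MCF10A (top) and MDA-MB-231 (bottom), from edgeR fits with 2 libraries per group. Filled points passed an adjusted p of 0.05: HES1, HEY1, NOTCH4 and DLL1 in MCF10A under HPP, and JAG2 in MDA-MB-231 under H and HPP.

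The counts of members called are to be read against those of all genes. In MCF10A, 9 members were among the 13124 genes tested. Under HPP edgeR's quasi-likelihood test called 2 of 9 in T (HES1 and HEY1), where 14.9% of all genes passed, and 3 of 9 in P (HES1, NOTCH4 and DLL1), where 22.2% passed. The median log2FC of the 9 was 0.23 in T and 0.82 in P, against -0.01 and -0.04 over all genes tested. HPP against H gave 1 of 9 in T (HEY1), where 3.74% of all genes passed, and 1 of 9 in P (HES1), where 6.5% passed. Hypoxia alone called 0 of 9 in T, where 1.54% of all genes passed, with 3 members at an unadjusted p under 0.05 and 0 called by DESeq2. In P it called 0 of 9, where 1.49% passed, with 3 at an unadjusted p under 0.05, and DESeq2 called 2 (NOTCH4 and DLL1). PP242 in normoxia called 0 of 9 in T, where 0.648% passed, with 2 at an unadjusted p under 0.05, and DESeq2 called 1 (HEY1). In P it called 0 of 9, where 0.823% passed, with 3 at an unadjusted p under 0.05, and DESeq2 called 1 (HES1).

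In MDA-MB-231, 9 members were among the 13510 genes tested. JAG2 was the 1 of 9 called under HPP in T, where 13.2% of all genes passed, under HPP in P, where 19.4% passed, and under H in P, where 2.29% passed. The median log2FC of the 9 under HPP was -0.16 in T and 0.22 in P, against -0.05 and 0.01 over all genes tested. Hypoxia alone called 0 of 9 in T, where 1.27% of all genes passed, with 1 at an unadjusted p under 0.05. PP242 in normoxia called 0 of 9 in T, where 0.555% passed, and 0 of 9 in P, where 1.95% passed, with 2 and 1 at an unadjusted p under 0.05. HPP against H called 0 of 9 in T, where 3.78% passed, and 0 of 9 in P, where 11.5% passed, with 2 and 0 at an unadjusted p under 0.05. DESeq2 called 0 in each of these 5 comparisons. A share of members near that of all genes is no result about the members.

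Translational efficiency asks whether a treatment moved a member's polysomal mRNA more than its total mRNA. In MCF10A edgeR's interaction test called 0 of 9 members under H, HPP or NPP, and 0% of all genes in each of the 3. In MDA-MB-231 it called 0 of 9 under H, where 0.0148% of all genes passed, 0 of 9 under HPP, where 0.696% passed, and 0 of 9 under NPP, where 0.34% passed. No member had an unadjusted p under 0.05 in any of the 6 comparisons, DESeq2 called 0 in each, and the z-score rule on Te called 0. The largest Te in size among members was that of HES1 under HPP in MCF10A, -1.08 ± 0.83 (adjusted p = 0.977), and those of NOTCH4 (0.82 ± 0.61), HEY1 (0.78 ± 0.45) and JAG1 (1.04 ± 0.72) under HPP were positive and did not pass. For JAG2 under HPP in MDA-MB-231, Te was 0.17 ± 0.44, from log2FC of 1.67 in T and 1.84 in P. Per the titles, the T and P library of a condition and replicate carry the same number, and with that number as a block 0 of 9 members were called in each line and treatment. Te is relative, because libraries of T and P are scaled to the same size.

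In normoxia the polysomal level of the members relative to other genes was also compared. P against T called 0 of 9 members in MCF10A, where 0% of all genes passed, and 0 of 9 in MDA-MB-231, where 13.1% passed, with 0 and 2 members at an unadjusted p under 0.05 and 0 called by DESeq2 in each. The 2 were HEY1, at -1.25 ± 0.40 (0.779 and 1.33 CPM in T, 0.577 and 0.340 CPM in P, adjusted p = 0.0553), and NOTCH4, at -0.70 ± 0.25 (1.50 and 1.71 CPM in T, 1.04 and 0.992 CPM in P, adjusted p = 0.0821). For each of them both polysomal libraries lay below both total libraries.

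The lines were also compared in normoxia, where line, count table and medium cannot be told apart. Each line has a count table of its own, and only MCF10A cells received EGF, hydrocortisone, cholera toxin and insulin. In a joint fit of 32 libraries over 14298 genes, 6 of 10 members differed in N T, where 40.7% of all genes passed, and 7 of 10 in N P, where 45.4% passed. HES1 was 12.5-fold higher in MDA-MB-231 in T (log2FC 3.65 ± 0.36, adjusted p = 5.62e-08), from 1.04 and 1.47 CPM in MCF10A to 18.7 and 13.0 CPM. JAG1 was 13.3-fold higher (log2FC 3.73 ± 0.43, adjusted p = 3.8e-07), from 7.97 and 7.17 CPM to 116 and 85.8 CPM. JAG2 was lower by a log2FC of -2.33 ± 0.40 (adjusted p = 8.17e-05), and HEY1 by -1.19 ± 0.32 (adjusted p = 0.00434). The HEY1 call was lost without the second MCF10A or the first MDA-MB-231 library. In P the log2FC were 3.66 ± 0.36 for HES1, 3.95 ± 0.43 for JAG1, -2.33 ± 0.41 for JAG2 and -1.78 ± 0.34 for HEY1. LFNG gave -1.15 ± 0.45 in P (adjusted p = 0.0428) and -1.05 ± 0.45 in T (adjusted p = 0.0682). In T it passed without the first MDA-MB-231 library (adjusted p = 0.0107) and with an offset for length (adjusted p = 0.0343), and its call in P was lost without either N P library of MCF10A or the second of MDA-MB-231, and with offsets for length and GC content.

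NOTCH3 and DLL1 were each near 0 in one of the lines. NOTCH3 had 0 and 0 counts in N T of MCF10A and 13 and 7 in MDA-MB-231, at least 4.57-fold higher when 3 counts per library are taken as the limit of a count of 0. In N P it had 1 count over both libraries of MCF10A and 18 over those of MDA-MB-231, a ratio of 20.9 (95% counting interval 3.31 to 873). DLL1 had 40 counts over the N T libraries of MCF10A and 2 over those of MDA-MB-231, a ratio of 14.6 (3.79 to 125), and 31 against 6 in N P, a ratio of 4.44 (1.82 to 13.0). These intervals are exact and cover counting error only. Each passed the filter on low counts only through the line in which it was high and therefore had to differ, so that the 6 and 7 members called in N include these 2 by the filter, and nothing is read from their fitted tests. NOTCH1, NOTCH2 and NOTCH4 were not called between the lines in either fraction by this fit, but NOTCH2 passed in T with an offset for length (-0.91, adjusted p = 0.0213).

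The same fit tested whether a treatment moved a member differently in the lines. Under HPP, JAG2 and HES1 were called in both fractions, with the values given above. They were 2 of the 3 members of 10 called in T, where 3.31% of all genes passed, and the 2 of 10 called in P, where 3.6% passed. The third call in T, NOTCH3, passed the filter through MDA-MB-231 alone, and nothing is read from it. It rested on counts of 0 and 0 in N and 7 and 3 in HPP in MCF10A against 13 and 7 and 11 and 12 in MDA-MB-231, so that its fitted size is no bound, and the call was lost without any 1 of the 8 libraries and without the filter on low counts. For NOTCH4 the difference in P was -1.61 ± 0.49 (adjusted p = 0.0778), which passed under DESeq2 (adjusted p = 0.0413), with offsets for length and GC content (adjusted p = 0.0379) and without the first HPP P library of MCF10A (adjusted p = 0.0286). JAG1 was not called in P by this fit. It passed there with an offset for length (-1.37, adjusted p = 0.0146) and with offsets for length and GC content (-1.37, adjusted p = 0.0204). The H effect differed for 0 of 10 in T, where 0.266% passed, and 0 of 10 in P, where 0.329% passed, with 2 and 3 members at an unadjusted p under 0.05. The NPP effect differed for 0 of 10 in T, where 0.056% passed, and 0 of 10 in P, where 0.126% passed, with 4 and 5 members at an unadjusted p under 0.05. DESeq2 called 0 in each of these 4.

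**Figure D4:**
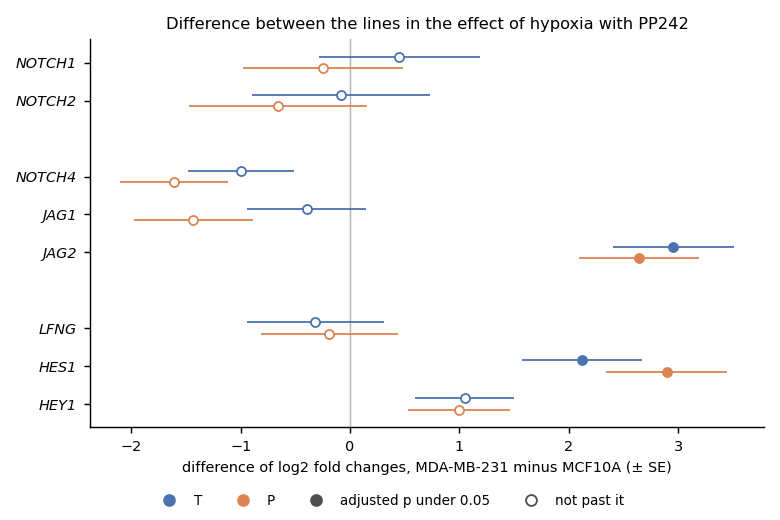
Difference between the lines (MDA-MB-231 minus MCF10A) in the log2 fold change under HPP against N, ± SE, in total (T) and polysomal (P) mRNA, for the 8 members that passed the filter on low counts in both lines, so that NOTCH3 (-5.93 in T) and DLL1 are not drawn. JAG2 (2.96 in T, 2.64 in P) and HES1 (2.12 in T, 2.89 in P) passed an adjusted p of 0.05 and are filled.

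The members also varied among themselves. Over the 16 libraries of MCF10A, the log2 levels of JAG1, NOTCH1 and NOTCH2 ran together (Pearson's r = 0.88 for JAG1 with NOTCH1, 0.87 for NOTCH1 with NOTCH2 and 0.86 for JAG1 with NOTCH2), the 3 genes that also followed the share of long transcripts. HES1 ran with JAG2 (r = 0.63) and HEY1 (r = 0.61) and against DLL1 (r = -0.70). In MDA-MB-231 the closest pairs were HEY1 with NOTCH4 (r = 0.79) and NOTCH1 with NOTCH2 (r = 0.79), and HES1 ran against NOTCH4 (r = -0.63) and JAG2 (r = -0.54). The genes whose levels were most like those of HES1 in MCF10A were HOXC13 (r = 0.95), ID3, RPP25, SAMD11 and SRP19 (r = 0.94 each). Those most like JAG2 in MDA-MB-231 were RRBP1 (r = 0.96), YEATS2 (r = 0.95), ARL10, FN1 and SPNS2 (r = 0.94 each). These correlations are over libraries of 8 groups that share the treatments, and they are given without a p.

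Around the 10 members, 63 other genes of the pathway were followed, of which 51 were tested in MCF10A and 58 in MDA-MB-231. In MCF10A, HPP raised 7 and lowered 5 of 51 in T, where 14.9% of all genes passed, and raised 8 and lowered 4 in P, where 22.2% passed. In MDA-MB-231, HPP raised 8 of 58 in T and 11 in P and lowered 0 in either, where 13.2% and 19.4% of all genes passed, so that 3 of these 4 counts were near the share of all genes. H called 1 of 51 in each fraction of MCF10A, DNER, and 0 of 58 in MDA-MB-231, and NPP called 2 of 51 in each fraction of MCF10A, HES2 and NUMBL, and 0 of 58 in MDA-MB-231. Of all genes in MCF10A, H called 1.54% in T and 1.49% in P and NPP 0.648% and 0.823%, and in MDA-MB-231 the shares were 1.27% and 2.29% for H and 0.555% and 1.95% for NPP. Their median log2FC under HPP was -0.16 (T) and 0.01 (P) for the 51 of MCF10A, and that of the 58 in MDA-MB-231 was 0.05 in T and 0.01 in P.

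HES2, a repressor of the same family as HES1, rose in MCF10A under HPP, where HES1 fell. In MCF10A it stood at 0.460 and 0.324 CPM in N T, 0.855 and 1.67 CPM in H T, 4.03 and 4.96 CPM in NPP T and 6.03 and 15.3 CPM in HPP T. The conditions did not overlap, and HPP gave a log2FC of 4.76 ± 0.54 in T (adjusted p = 0.000346) and 5.59 ± 0.58 in P (adjusted p = 0.000154). NPP gave 3.56 ± 0.53 in T (adjusted p = 0.0159) and 4.26 ± 0.56 in P (adjusted p = 0.00547). In MDA-MB-231, HES2 went from 0.311 and 0.380 CPM in N T to 1.38 and 1.78 CPM in HPP T (log2FC 2.13 ± 0.42, adjusted p = 0.00479). HES7, another repressor of the family, rose there in T by 2.16 ± 0.40 (adjusted p = 0.00341), from 0.280 and 0.238 CPM to 1.33 and 1.14 CPM.

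DNER, a membrane protein that can bind Notch, rose in MCF10A under H and HPP. In T it stood at 57.0 and 62.4 CPM in N T, 138 and 174 CPM in H T and 195 and 274 CPM in HPP T. The 3 conditions did not overlap, and the log2FC was 1.41 ± 0.23 under H (adjusted p = 0.00969) and 1.99 ± 0.24 under HPP (adjusted p = 0.000447). In P it was 1.2 ± 0.23 under H (adjusted p = 0.0251) and 2.10 ± 0.24 under HPP (adjusted p = 0.000257). In MDA-MB-231 it was not called under H, and the log2FC under HPP in P was 0.99 ± 0.19 (adjusted p = 0.00267). Of the 4 other ligands tested in MDA-MB-231, DLL4, a Delta-like ligand named after its values were seen, rose as well. It went from 0.280 and 0.523 CPM in N T to 1.58 and 0.903 CPM in HPP T (log2FC 1.61 ± 0.45, adjusted p = 0.0287). In P it went from 0.385 and 0.255 CPM to 1.42 and 1.02 CPM (log2FC 1.90 ± 0.45, adjusted p = 0.00943), a change about as large as that of JAG2. NUMBL, a relative of the Notch antagonist NUMB, rose in MCF10A with PP242, from 36.8 and 34.8 CPM in N T to 78.1 and 98 CPM in NPP T and 97.9 and 105.6 CPM in HPP T, and the log2FC was 1.34 ± 0.24 and 1.53 ± 0.25 (adjusted p = 0.0368 and 0.00195). All 4 libraries with PP242 lay above both normoxic ones.

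Of the 9 proteases that cut Notch or its precursor, 1 rose in T and 3 in P under HPP in MCF10A, and 3 rose in each fraction in MDA-MB-231. Of all genes, 14.9% and 22.2% passed in T and P of MCF10A, and 13.2% and 19.4% in MDA-MB-231, and the counts of the other lists here stand against the same shares. APH1B, a gamma-secretase subunit, was among them in both lines, with a log2FC of 1.52 ± 0.24 in T of MCF10A (adjusted p = 0.00179) and 0.96 ± 0.20 in P of MDA-MB-231 (adjusted p = 0.00417). ADAM17, which cuts outside the membrane, went in MDA-MB-231 from 31.8 and 32.4 CPM in N P to 55.5 and 55.3 CPM in HPP P. The groups did not overlap, and the log2FC was 0.75 ± 0.15 (adjusted p = 0.00312). Among 12 co-repressors, 4 fell and 1 rose in T and 2 fell in P under HPP in MCF10A, and 0 of 11 were called in either fraction of MDA-MB-231. In the nuclear complex of 9 genes that holds RBPJ, 0 were called in T in either line, and 1 fell in P in MCF10A (KAT2A) and 1 rose in P in MDA-MB-231 (KAT2B).

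**Figure D5:**
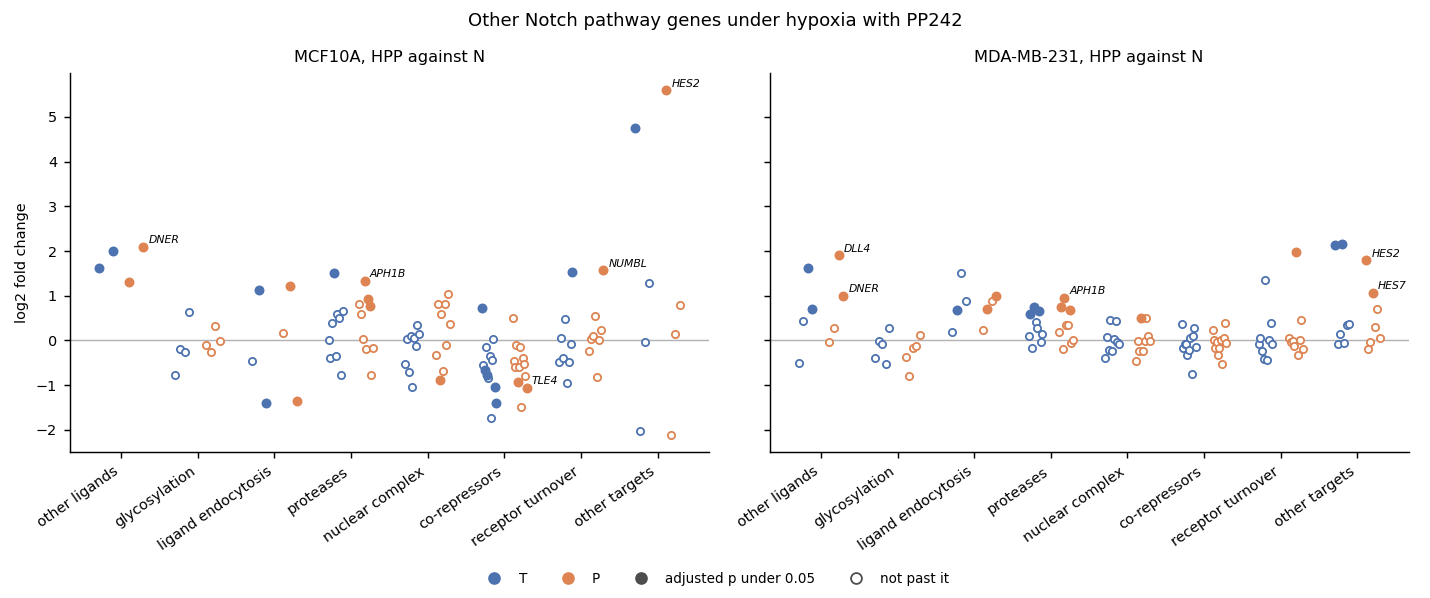
log2 fold change of other Notch pathway genes under HPP against N in total (T) and polysomal (P) mRNA of MCF10A (left) and MDA-MB-231 (right), grouped by role, with filled points for an adjusted p under 0.05. HES2 has the highest value in MCF10A (5.59 in P), and called genes lie on both sides of 0 in MCF10A and above 0 in MDA-MB-231.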

How the data were processed

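The authors made TruSeq RNA v2 libraries, and per the labels reads were mapped with STAR and counted with RSEM. Per the labels the build was GRCh37, whereas the study's methods name GRCh38, and the files hold no coordinates. The authors deposited expected counts per gene, as whole numbers and without normalisation, in 1 table per line, with 0 columns left without a sample. Gene positions and exon lengths came from GENCODE 44 on GRCh38, promoters from RefSeq (GRCh38.p14).

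From these counts, protein-coding genes were filtered by filterByExpr, scaled by TMM and tested genome-wide in R 4.3.3 with edgeR 4.0.16 (quasi-likelihood F test, Benjamini-Hochberg adjustment over all genes tested, threshold 0.05). For each line 16 libraries in 8 groups were fitted together, which left 8 residual degrees of freedom. Te was the interaction of fraction and treatment. Line differences came from a joint fit of 32 libraries. A rule on the z-scores of Te asked for more than 1.5 in size together with a polysomal adjusted p under 0.05 in MCF10A or 0.10 in MDA-MB-231. Permuting 2 libraries against 2 cannot give a two-sided p below 0.333, and none is given. The labels call the replicates biological, and each title starts with a number that differs between replicates and is shared by the T and P library of a condition. They do not say what the number marks. Correlations used log2 CPM with a prior count of 2.

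Alternatives were DESeq2 1.42.0, RLE scaling, no filter on low counts, fits of only the libraries compared, a replicate block, each library left out, the longest transcript as gene length and, chosen after seeing the data, offsets for transcript length and GC content (span 0.3), fits without 2 libraries and exchanged z-score limits. The procedures were tested on data simulated from the MDA-MB-231 libraries, with the same spread for all genes. This does not cover the wider spread of MCF10A or changes in genes at low levels.

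The members and gene lists were chosen with earlier results of these data known. Any of the 10 members could be named in each comparison, and not every value is printed. Other pathway genes were named where called under H, HPP or NPP against N, at most the 4 with the smallest adjusted p per comparison. Some items are not reported here. DLL4, KAT2A and KAT2B were named after their values were seen. The 5 genes most alike were found by Pearson's r for the member with the smallest p under HPP in P.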

Additional observations from a re-analysis of the deposited data

Results flagged for a closer look

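The effect of hypoxia with PP242 differed between the lines for several genes, by the test of the difference itself in the joint edgeR fit of 32 libraries (MDA-MB-231 minus MCF10A, log2 scale). For JAG2 the difference was 2.96 ± 0.55 in T (adjusted p = 0.00445) and 2.64 ± 0.55 in P (adjusted p = 0.00824), and all 4 HPP libraries of MDA-MB-231 lay above normoxia and all 4 of MCF10A below it. For HES1 it was 2.12 ± 0.55 in T (adjusted p = 0.035) and 2.89 ± 0.55 in P (adjusted p = 0.00449), where the MCF10A values under HPP rest on 4 to 10 counts per library. NOTCH3 differed by -5.93 ± 1.59 in T (adjusted p = 0.0448), but it entered the fit only through its counts in MDA-MB-231, had 0 counts in both normoxic MCF10A libraries and lost the call without any 1 of the 8 libraries, so nothing is read from this value.

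Among the other pathway genes named, DNER differed by -1.21 ± 0.30 in T (adjusted p = 0.0276) and -1.13 ± 0.30 in P (adjusted p = 0.0383), with a rise in both lines. NUMBL differed by -1.51 ± 0.34 in T (adjusted p = 0.0157) and -1.79 ± 0.34 in P (adjusted p = 0.00449), and it stood at 11.3 and 14.2 CPM in HPP T of MDA-MB-231 against 11.1 and 14.6 CPM in N T. HES2 differed by -3.84 ± 0.71 in P under HPP (adjusted p = 0.00343) and by -3.79 ± 0.73 in P under PP242 in normoxia (adjusted p = 0.0354). In T its differences were -2.57 ± 0.71 (adjusted p = 0.0502) and -2.93 ± 0.73 (adjusted p = 0.273), which did not pass.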

How the results depend on the processing

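With 2 libraries per group and a biological coefficient of variation of 0.325 in MCF10A against 0.15 in MDA-MB-231, most calls in MCF10A lie near the threshold. No member called reversed under any alternative. Of the values of called members, 173 kept their side of the threshold and 12 lost it under other settings, and 88 kept and 44 lost it when 1 library was left out. The causes of the changes below were not tested, except that leaving out a library or fitting 4 alone uses fewer samples. In MCF10A the number of members called under HPP in T, 2 in the report, was 1 without the filter on low counts, 4 under DESeq2, 0 in a fit of the 4 libraries, 5 with both offsets and 4 without the second NPP T and first N P library, where NOTCH3 passed the filter and was among them. Under HPP in P, 3 in the report, it was 5 with both offsets. HPP against H gave 0 in T without the filter and 0 in T and in P with 4 libraries, in place of 1, and 2 in P with either offset or without the 2 libraries. NPP gave 1 in T and 1 in P under DESeq2 and either offset in place of 0, and H in P gave 2 under DESeq2. In MDA-MB-231, H in P gave 0 under RLE scaling, DESeq2 and the 4 libraries in place of 1, and HPP gave 2 in T and 2 in P without the filter and 2 in P with 4 libraries, NOTCH1 being added. P against T in normoxia gave 1 (HEY1) with either offset in place of 0. The line difference under HPP in P gave 4 with both offsets in place of 2, NOTCH4 and JAG1 being added. With the longest transcript as length, 3 members of MCF10A changed rank (DLL1, HES1 and HEY1).

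Leaving out 1 library at a time gave 0 to 0 members in MCF10A under HPP in T and for HPP against H in T and P, 1 to 3 under HPP in P, and in MDA-MB-231 0 to 0 under H in P, 1 to 1 under HPP in T and P, 0 to 1 for HPP against H in T and 0 to 1 for P against T. The line differences gave 5 to 6 in N T, 5 to 7 in N P, 1 to 2 for the HPP effect in T and 1 to 3 in P. In each other comparison it gave 0.

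Replicate numbers 1 and 2 recur in every group, but nothing in the labels says that a number marks a shared day. The deviations of replicate 1 from 2 correlated between conditions by 0.283 to 0.778 within T of MCF10A and -0.10 to 0.635 within P, and by -0.187 to 0.282 and 0.00232 to 0.347 in MDA-MB-231. Between T and P of a condition they correlated by -0.25 to 0.214 in MCF10A and 0.00239 to 0.348 in MDA-MB-231. With a replicate block, members called in MCF10A were 5 under HPP in T, among them NOTCH4 (adjusted p = 0.0175), JAG2 (0.0429) and DLL1 (0.0469), 1 under H in T and in P, which was NOTCH4 (1.50 ± 0.33, adjusted p = 0.0355 in T and 1.63 ± 0.34, adjusted p = 0.0261 in P), 1 under NPP in T (HEY1, adjusted p = 0.0471) and in P (HES1, 0.041), and 2 for HPP against H in P, HES1 and LFNG (-0.90 ± 0.27, adjusted p = 0.0492). The differences between lines of LFNG (adjusted p = 0.0133) and NOTCH4 (0.0305) in N T and of NOTCH4 under HPP in P (-1.60 ± 0.36, adjusted p = 0.0102) passed as well. JAG1 under HPP in P of MCF10A passed with the block too (1.18 ± 0.40, adjusted p = 0.0407). The block, by the number of the titles for Te and P against T, moved no other count of members by more than 1.5 times.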
